A study of Mus musculus with 4 samples.

Results

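The genes described here encode the proteins of the cytosolic ribosome. They were taken by their symbols, Rpl or Rps followed by a number and any letters, with Rplp0, Rplp1, Rplp2 and Rpsa, and without the Rps6 kinases and Rps19bp1. The rule found 85 of 32285 genes, 52 of the large subunit and 33 of the small subunit counting Rpsa. The RNA came from live CD45+ cells sorted out of melanomas grown in wild type C57BL/6 mice from the cell line 20967, which was made on a Nras+LSL-G12D;Tyr::CreERT2+/o background; both groups used wild type mice and this 1 line. One group received a control treatment and the other clobetasol propionate, a potent topical glucocorticoid (GC), and the cells of each tumor carried their own hashtag antibody, so that 5 control and 5 GC tumors could be told apart. The sources used here do not say that each tumor came from a separate mouse, so p-values measure the spread between tumors. All control tumors ran in 1 channel (3803 cells kept, 347 to 1250 per tumor) and all GC tumors in another (305 cells, 18 to 111 per tumor), so treatment and channel cannot be told apart. Control cells had a median of 7440 UMIs (unique molecular identifiers, 1 per captured transcript; 500 to 26054) and GC cells one of 9163 (507 to 28438), and no cell barcode was shared between the channels (0). The age of the mice is not given in the sources used here.

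A ribosome carries 1 copy of nearly every one of these proteins, which its 2 subunits hold around the ribosomal RNA, and its genes are among the most strongly expressed in any cell. Their mRNAs typically start with a run of pyrimidines, the terminal oligopyrimidine tract, through which mTOR and the RNA-binding protein Larp1 set their translation and stability together. In the immune system naive and activated lymphocytes are known to be rich in them and mature neutrophils to be poor. A few members have a paralog: Rps27l is a p53 target that can take the place of Rps27, Rpl22l1 is the close relative of Rpl22, an RNA-binding protein needed by αβ T cells, and Rpl3l and Rpl10l are known from muscle and testis.

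The members lie on 19 chromosomes of mm10. Start sites were listed by RefSeq (GRCm38.p6) for 65 of the 85. A run of at least 6 pyrimidines on the sense strand between 10 bases before and 20 bases after the start stood at 53.25% of the 77 member start sites, against 28.67% of all 32851 listed. The ETS-type motif CCGGAAG, on either strand between 250 bases before and 50 after the start, stood at 35.06% against 8.858%. The windows below, 20 bases to each side of the listed start and written 5′ to 3′, are those of genes to which the results return, with the longest pyrimidine run near the start in capitals.
Rps18, chr17:33955646-33955685, minus strand: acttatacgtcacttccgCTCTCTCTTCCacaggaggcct
Rps15a, chr7:118116128-118116167, minus strand: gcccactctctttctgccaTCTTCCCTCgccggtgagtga
Rps9, chr7:3704021-3704060, plus strand: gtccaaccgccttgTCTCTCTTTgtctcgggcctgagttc
Rps27, chr3:90213629-90213668, minus strand: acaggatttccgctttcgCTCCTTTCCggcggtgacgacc
Rps27l, chr9:66946066-66946105, plus strand: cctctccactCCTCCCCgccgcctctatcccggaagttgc
Rpl37a, chr1:72711240-72711279, plus strand: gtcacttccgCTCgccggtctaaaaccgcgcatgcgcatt
Rpl10, chrX:74270796-74270835, plus strand: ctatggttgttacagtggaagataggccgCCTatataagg
The listed starts of Rpl37a and Rpl10 have no run over 3, which says only that these letters are not in this window. Many members also have processed copies elsewhere: 80 of the 85 share at least 1 stretch of 90 bases, the length of the RNA read, with a transcript of another gene, at a median of 34.51% of all such stretches. How the counting treated reads that fit several genes could move the values of these members.

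In the control cells the summed level of the family, as the percentage of a cell's UMIs that came from the 85 genes, was highest in lymphocytes and lowest in granulocytes. Values are means over tumors with at least 5 cells of a cluster, ± SD. The CD4 cluster stood highest at 10.82% ± 0.429 (n = 5), followed by NK cells at 9.965% ± 0.929, CD8 1 at 9.819% ± 0.494 and CD8 3 at 9.641% ± 0.233, neighbours whose ranges overlap. The CD8 4 cluster held 9.576% ± 1.39 in 2 tumors. DC 2 held 8.938% ± 0.878 and CD8 2 8.823% ± 0.949, then γδT cells 8.557% ± 1.99 and Monocytes 2 8.544% ± 0.715. Monocytes 3 held 7.429% ± 1.59 in 3 tumors. TAMs, the tumor-associated macrophages, held 7.231% ± 0.418, DC 1 6.849% ± 1.06 and Monocytes 1 5.856% ± 0.104 (n = 4). Tregs were far below the other T cells at 4.245% ± 0.213, with all 5 tumors between 3.993% and 4.565%. Eosinophils held 3.387% ± 0.214 and neutrophils 1.804% ± 0.13, the lowest of all. Depth differed with these values, since eosinophils had a median of only 873.5 UMIs per cell and neutrophils 4220.5, and a share of UMIs cannot tell fewer ribosomal transcripts from more of the others. Against the listed markers 2 cluster names stood out: the CD4 cluster had a summed level of 2.87 per 10000 UMIs for 5 B cell markers, above every other cluster, and the eosinophil cluster had more of the 6 neutrophil markers (64.5) than of the eosinophil markers (15.6).

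Single members were compared as mean UMIs per 10000 UMIs of a cell. The kit tags the 3′ end of each molecule once, so these values count molecules and were not divided by length. The median member stood at 6.39 over all control cells. Rpl37a led at 28.6, ahead of Rps29 at 22.9 and Rpl41 at 22.8, and the 10 highest members, which also held Rps9, Rplp1, Rps24, Rplp2, Rps21, Rpl38 and Rps28, made up 28.4% of the summed level. Rplp1 and Rplp2 form the acidic stalk of the large subunit with Rplp0, and Rpl41 is the smallest protein of the ribosome. Of the 85 members, 82 reached a mean of 0.2 over the 16 clusters. Their levels followed the summed level closely: over the 16 clusters the median Pearson r of a member with the sum was 0.964 on the log2 scale. These points share libraries and depth, and the members are part of the sum, so the value is a description. Among 6460 genes that are no members, the patterns most like the family's were those of Eef1a1 (r = 0.986) and Eef1b2 (r = 0.976), subunits of elongation factor 1, and the nucleolar protein gene Npm1 (r = 0.971).

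**Figure D1:**
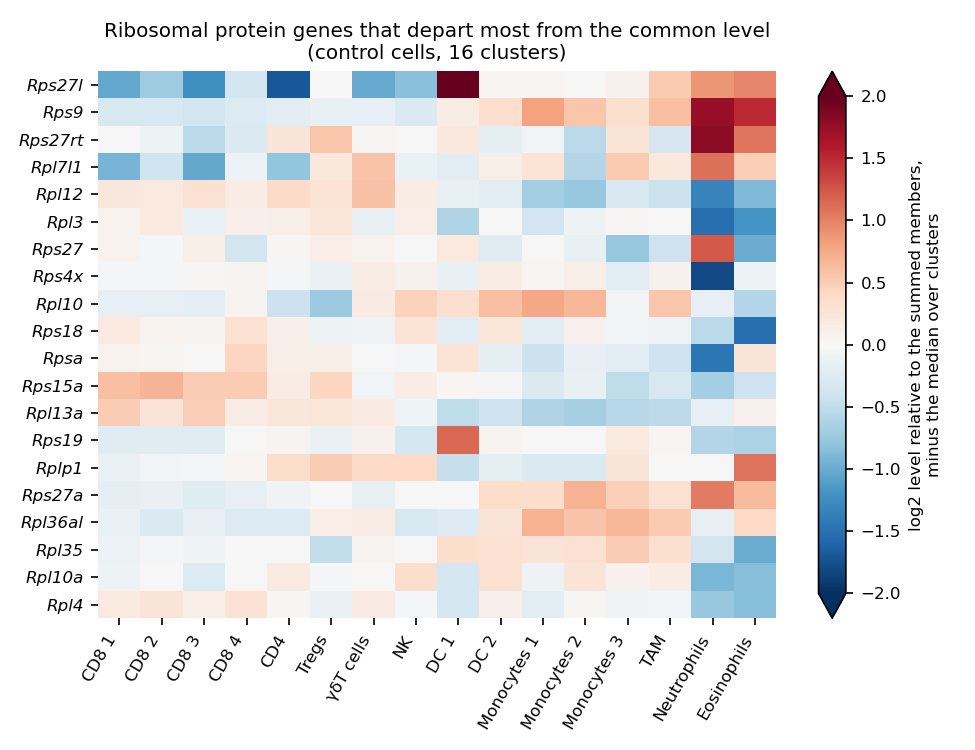
Level of the 20 members with the largest spread over the 16 clusters (rows) in control cells, as log2 of the level relative to the summed members minus the gene's median over clusters (color, no unit). Rps27l stands out in DC 1 and Rps9 in neutrophils and eosinophils, while most members stay within 0.5 of their median in most clusters.

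Rps27l departed most from the common level. Its r with the summed level was 0.102 and its log2 level relative to the family had an SD of 1.16 over clusters, against a median SD of 0.249. In the DC 1 cluster the 5 control tumors read 9.43, 8.03, 10.8, 8.36 and 14.6 per 10000, where in DC 2 they read 1.23, 1.69, 0.949, 0.969 and 2.24. No tumor's DC 1 value was within the range of any other cluster, of which TAMs were next at 1.53 ± 0.0621 (n = 5) and neutrophils were among the lowest at 0.397 ± 0.232. DC 1 was led among the fixed dendritic cell markers by Ccr7, the chemokine receptor that takes dendritic cells to lymph nodes (26.8), and by the actin bundler Fscn1 (20.2), both of which mature dendritic cells are known to express. Of the other listed markers Flt3 was also highest there (9.41). Xcr1, Clec9a, Cd209a and Siglech were lower than in DC 2, at 0.0132, 0.088, 0 and 0 against 0.171, 0.729, 5.23 and 1.64. A UMI of Rps27l was seen in 87 of 97 control DC 1 cells, or 89.7% (exact 95% interval 81.9 to 94.9, counting error only; median depth 15827 UMIs), against 27.3% of CD4 cells (21.9 to 33.2; 7281 UMIs). The 10 DC 1 cells of GC tumors held 154 Rps27l UMIs, seen in 9 of them. Rps27 did not share this pattern, at 17.6, 15.3, 14.3, 11.8 and 14 in the DC 1 cells of the control tumors. Of 10 genes listed beside Rps27l as p53 and stress targets, none was highest in DC 1. The stress-induced Sesn2 and the cell death gene Bax were second highest there, at 0.603 and 0.718, while Ccng1 and Trp53 itself were 15th of 16. Without DC 1 the r of Rps27l was 0.245 over 15 clusters.

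**Figure D2:**
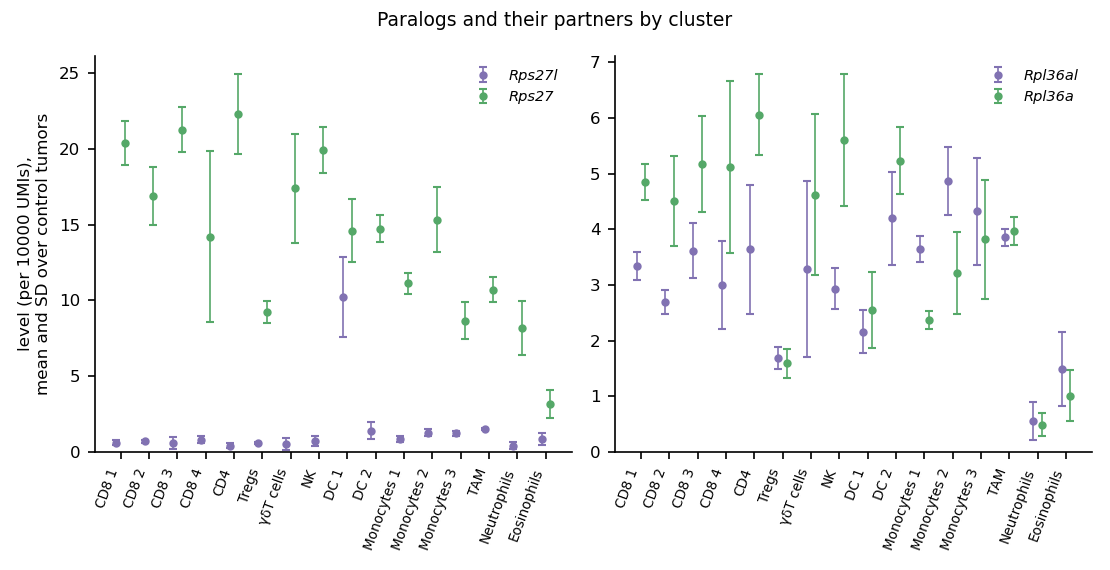
Level per 10000 UMIs (vertical axes, starting at 0) of Rps27l and Rps27 (left) and of Rpl36al and Rpl36a (right) in each cluster, as points with SD bars over control tumors with at least 5 cells. Rps27l comes near Rps27 in DC 1, and Rpl36al exceeds Rpl36a in Monocytes 1.

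Rps9, a small subunit protein of the decoding region, was the second to depart. In neutrophils it was the highest of all members, at 15.4, 14.3, 12.3, 12.7 and 13.5 in the control tumors, and in eosinophils it was again first at a pooled 21.1. In CD8 1, where the whole family was far more abundant, Rps9 was only 17th, at 18.9, 18.8, 17.7, 16.4 and 17.3. Relative to the family it stood 1.74 above its median (log2) in neutrophils. Several members did the reverse: in neutrophils the relative log2 levels of Rps4x, Rpl3, Rpsa and Rpl12 minus their own medians were -1.8, -1.5, -1.45 and -1.34, with pooled levels of 0.383, 0.378, 1.04 and 0.402. Rps4x is the X-linked form of the gene, Rpl3 sits at the entrance of the peptidyl transferase center and Rpsa is also known as a laminin receptor. Rpl13a, known for its part in the interferon-gamma-activated inhibitor of translation complex, read 28.5, 26.1, 27.6, 25.9 and 24.9 in CD8 1 but 9.39, 9.68, 9.11, 9.79 and 9.57 in TAMs. Tregs read 10.6, 9.61, 9.21, 9.24 and 8.52, near the level of TAMs. The family's share was lower in Tregs, though, at 4.245% against 7.231% in TAMs and 9.819% in CD8 1. Relative to the family, Rpl13a was therefore higher in Tregs than in TAMs. Rps19, the gene most often mutated in Diamond-Blackfan anemia, was highest in DC 1, at 21.6, 15.8, 18.6, 16.4 and 16.3, against 10.3 to 12 in DC 2. The other members among the 10 with the largest relative spread were Rps27rt, Rpl7l1, Rps27, Rpl10 and Rps18.

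There were 8 paralogs among the members. Each has a partner in the family. How far they can be told apart shows in the first 60 coding bases, where capitals mark bases that differ from the partner.
Rps27: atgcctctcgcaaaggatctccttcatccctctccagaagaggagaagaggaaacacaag
Rps27l: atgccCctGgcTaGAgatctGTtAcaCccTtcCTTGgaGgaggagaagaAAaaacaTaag
Rps27rt: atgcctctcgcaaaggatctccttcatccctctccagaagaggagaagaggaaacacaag
Rpl36a: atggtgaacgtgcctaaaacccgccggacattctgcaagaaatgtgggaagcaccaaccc
Rpl36al: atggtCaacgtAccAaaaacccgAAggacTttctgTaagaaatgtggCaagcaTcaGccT
Rps27l has 76.08% identity with Rps27 over the coding sequence and no identical stretch over 11 bases in the transcript, so a 90-base read tells them apart. Rps27rt is a single-exon copy with a coding sequence 100% identical to that of Rps27, and 89.82% of its 90-base stretches also occur in another gene, so its level of 0.329 cannot be told apart from Rps27 reads. Rpl36al, also of 1 exon, has 87.85% identity with Rpl36a and was a well expressed gene of its own. In Monocytes 1 it read 3.42, 3.79, 3.48 and 3.89 in the 4 control tumors with enough cells, above Rpl36a at 2.58, 2.38, 2.20 and 2.30. In CD8 1 the order turned, with Rpl36al at 3.43, 3.61, 3.45, 2.96 and 3.23 below Rpl36a at 5.15, 5.12, 4.95, 4.60 and 4.41 in every tumor. Processed copies share 84.01% of the 90-base stretches of Rpl36a, so its part of this comparison is uncertain.

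Rpl22l1 was scarcer than Rpl22 in CD8 1, at 1.78, 1.60, 2.36, 2.56 and 2.09 against 7.75, 7.47, 7.30, 6.97 and 6.91, and lower in TAMs at 1.12 ± 0.105 against 6.21 ± 0.241 (n = 5). Rpl7l1, the most distant paralog with 55.99% identity to Rpl7, had a pooled level of 0.245. The remaining paralogs were close to absent. Rpl3l had 129 UMIs in the control cells, 128 of them in myeloid clusters and 1 among the 12991691 UMIs of the lymphoid clusters, with its highest pooled level in Monocytes 3 at 0.204. Rpl39l had 24 UMIs, 12 in lymphoid and 12 in other clusters. Rpl10l had 0 UMIs of 32034696, which allows a level of up to 0.000936 per 10000 by counting error alone.

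**Figure D3:**
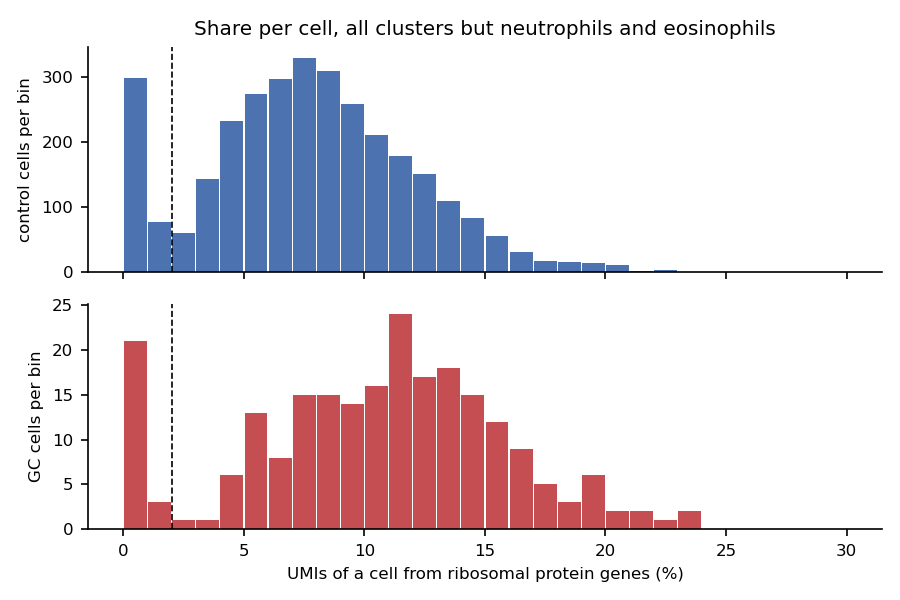
Number of control cells (upper panel) and GC cells (lower panel) by the percentage of their UMIs that came from the family, in bins of 1%, without neutrophils and eosinophils. A separate peak of 298 control and 21 GC cells lies under 1%, and the dashed line marks 2%.

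Outside the granulocytes the share per cell had 2 peaks, and cells under 2% were set apart after the values were seen. The cut is on the share itself, so shares and counts given without these cells are descriptions. They were 375 of 3163 control cells, or 11.9% (exact 95% interval 10.7 to 13), in each control tumor between 11.4% and 12.6%, and 24 of 229 GC cells, or 10.5% (6.83 to 15.2). Near the limit, 77 control cells lay between 1% and 2% and 60 between 2% and 3%. The poor control cells had a median share of 0.636% against 8.17% in the others, with fewer UMIs (3463 against 9395), more mitochondrial transcripts (3.18% against 1.91%) and more of the nuclear RNA Malat1 (244 against 138 per 10000). The part of cell integrity in this peak was not tested. Poor cells were most frequent among control Tregs, 127 of 486 or 26.1% (22.3 to 30.3), and were seen in 0 of 14 GC Tregs, where the exact interval reached 23.2%. They were 12.7% of control and 13.1% of GC CD8 T cells, and 7.19% of control TAMs (5.42 to 9.32) against 1 of 43 GC TAMs. Without them the Treg share rose only to 5.464% ± 0.284 (n = 5) in control tumors, against 10.88% ± 0.474 in CD8 T cells counted the same way.

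**Figure D4:**
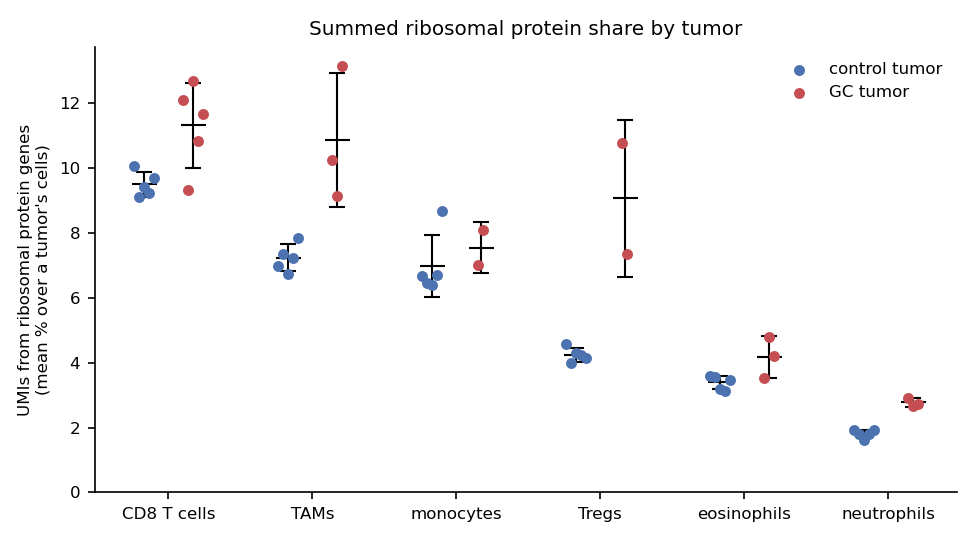
Percentage of UMIs from the family in each tumor with at least 5 cells of a class (points), with the mean and SD as black bars, for control and GC tumors. The GC tumors lie above every control tumor in TAMs, Tregs and neutrophils, and overlap the control tumors in CD8 T cells, monocytes and eosinophils.

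Between treatments, the family's share was higher in GC tumors in all 6 classes with enough cells, by mean, but only in 3 without overlap. In TAMs the 5 control tumors held 6.982%, 7.351%, 6.738%, 7.236% and 7.847% and the 3 GC tumors with at least 5 cells 10.251%, 9.144% and 13.146%. In neutrophils 1.928%, 1.792%, 1.604%, 1.787% and 1.911% stood against 2.923%, 2.669% and 2.734%, a ratio of means of 1.54. Tregs of GC tumors, with only 5 cells in each of 2 tumors, held 10.772% and 7.354%, each above the control maximum of 4.565%. In CD8 T cells (the clusters CD8 1 to 3) the control tumors held 10.068%, 9.094%, 9.413%, 9.212% and 9.681% and the GC tumors 12.098%, 9.311%, 12.661%, 10.814% and 11.661%. There 4 of 5 GC tumors were above all control tumors and GC tumor 2 was within their range. Without the poor cells the CD8 T cell groups no longer overlapped, at 10.43 to 11.54% and 12.1 to 13.78%. Those cells were set apart by this same share, so the gap is a description and no further support. Monocytes (6.98% ± 0.96, n = 5, against 7.545% ± 0.782, n = 2) and eosinophils (3.387% ± 0.214 against 4.174% ± 0.638, n = 3) overlapped. The monocyte class held clusters in unlike proportions, with Monocytes 1 making up 69.3% of control and 85.7% of GC monocytes and Monocytes 2 25.8% and 9.52%. In Monocytes 1 alone the groups did not overlap, at 5.703 to 5.936% in 4 control tumors and 7.533 to 7.933% in 2 GC tumors. The 1 GC tumor with enough CD4 or γδT cells lay below the control mean in each, at 9.139% and 5.657%. Poor cells were 2 of 10 GC CD4 cells and 4 of 11 GC γδT cells over all GC tumors. With the cells of all tumors pooled and the poor ones left out, the order was the other way. The mean over these cells was 13.99% in GC against 12% in control CD4 cells, and 12.29% against 9.812% in γδT cells. Pooling and the cut changed together here, so their parts cannot be told apart, and cells are not replicates.

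The UMIs of the family per cell were also higher. In CD8 T cells a GC cell held 1.56 times the family's UMIs of a control cell and 1.29 times the other UMIs, and in TAMs these ratios were 1.99 and 1.36. GC cells were deeper in both. Malat1 moved the other way, falling in CD8 T cells from 132 to 146 per 10000 in the control tumors to 74.9 to 102 in the 3 GC tumors tested (limma log2 change of -0.72, SE 0.0955, adjusted p = 0.00171), and in TAMs from 180 to 204 to 127 to 148. Markers of other cells moved too. In CD8 T cells with at least 5 cells per tumor the 6 macrophage markers summed to 0.467 to 0.994 per 10000 in control tumors, all above 0.0943 to 0.266 in GC tumors, and the 4 monocyte markers, among which T cells also express Plac8, to 11.8 to 17.1 against 1.51 to 5.11. The 7 dendritic cell markers, which include Ccr7, also known from naive T cells, were higher, at 0.663 to 8.36 in GC tumors against 0.152 to 0.583. In TAMs the 6 neutrophil markers stood at 1.93 to 3.63 in GC tumors against 1.01 to 1.35, while the 6 macrophage markers overlapped (54.6 to 75.2 against 47.9 to 67.8). Melanoma and red cell markers were at or near 0 in CD8 T cells of both groups. The part of other cells, free RNA, depth or nuclear RNA in the changes of the family was not tested.

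Gene by gene, the question was whether the family rose together or through a few members. Each tumor's mean level was tested with limma on log2(level + 0.1) over all genes with a mean of at least 0.2, with Benjamini-Hochberg adjustment over all of them and a two-sided threshold of 0.05. Control tumors were 5 throughout, and GC tumors with at least 10 cells were 3 in CD8 T cells and 2 each in TAMs and neutrophils. In CD8 T cells 23 of 82 members rose and 0 fell, where 2.27% of all 6158 genes tested rose and 2.74% fell. The median log2 change was 0.305 over the members and -0.0868 over all genes tested, and 69 members had a positive change. The edgeR quasi-likelihood test on summed UMIs called 48 members higher, among them all 23, where it called 3.9% of all genes. In 33 members every GC tumor was above every control tumor, as in 5.7% of all genes. The count depended on single libraries. It was 55 without GC tumor 2 (4.3% of all genes rose) and 11 to 17 with any 1 of the other 7 tumors left out (1.27% to 3.05%). Without the poor cells, a setting that leaves 2 GC tumors, it was 47 (3.53%).

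Rps18, which lines the head of the small subunit, rose most in CD8 T cells. It read 5.35, 4.83, 5.17, 4.98 and 5.08 per 10000 in the control tumors and 9.82, 10.2 and 10.8 in the GC tumors, a log2 change of 1.00 (SE 0.0993, limma adjusted p = 0.000323). Every GC tumor was above every control tumor, with a wide gap. Rpl10, which joins the large subunit last and carries it to translation, read 4.20, 3.62, 3.66, 3.56 and 3.78 against 6.43, 7.96 and 7.03, a change of 0.90 (SE 0.117, adjusted p = 0.00161 by limma). Rpl32 (0.69), Rps15a (0.64), Rpl26 (0.64), Rpl9 (0.62) and Rpl36 (0.62) were also among the largest changes, and each gene named here kept its call in each of the 8 fits that left out 1 tumor. Rpl26 is known to bind the mRNA of p53. Rpl37a, the highest member, did not pass the test, at 45.0, 38.9, 40.7, 42.3 and 44.4 against 28.8, 42.2 and 37.8, a change of -0.24 (SE 0.117, adjusted p = 0.266 by limma).

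**Figure D5:**
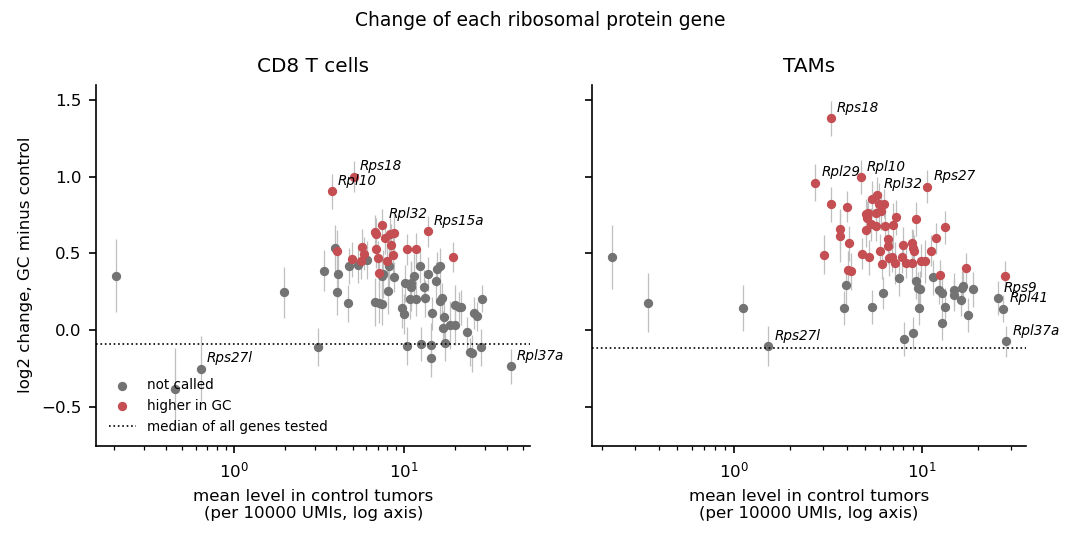
Log2 change between GC and control tumors (vertical axis, with SE bars) against the mean level in control tumors (horizontal log axis, per 10000 UMIs) for each member tested in CD8 T cells (left) and TAMs (right); the dotted line is the median change of all genes tested. Rps18 and Rpl10 stand highest among members of middle level in both panels, and Rpl37a lies near or below the dotted line.

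In TAMs 52 of 82 members rose and 0 fell, where 6.86% of all 5988 genes tested rose and 14.3% fell. The median log2 change was 0.471 over the members and -0.119 over all genes tested. The edgeR test called 53 members higher, 49 of them among the 52, where it called 6.93% of all genes, and in 61 members the groups did not overlap, as in 12.9% of all genes. The count stayed between 44 and 55 with any 1 control tumor left out (5.13% to 6.14% of all genes rose) and was 48 without the poor cells (7.06%). Rps18 again changed most, from 3.22, 3.30, 3.29, 3.31 and 3.26 in the control tumors to 9.63 and 7.83 in the GC tumors, a change of 1.38 (SE 0.113, limma adjusted p = 5.21e-05). Rpl10 went from 4.57, 4.88, 4.38, 4.61 and 5.27 to 9.30 and 9.79, and Rps27 from 10.2, 10.4, 10.1, 10.9 and 12.1 to 22.2 and 19.0. Rpl29 changed by 0.96, after Rps18 and Rpl10 and before Rps27, which was followed by Rpl32 (0.88), Rps15a (0.86), Rpl34 (0.82) and Rpl28 (0.82). Rps27l did not pass the test, at 1.49, 1.62, 1.45, 1.54 and 1.53 against 1.56 and 1.28, a change of -0.10 (SE 0.131, adjusted p = 0.609 by limma), while its partner Rps27 rose by 0.93 (SE 0.109, adjusted p = 0.000383 by limma). Of the 90-base stretches of Rps27, 98.44% also occur in Rps27rt, so how shared reads were counted could move the values of Rps27. Both classes came from the same tumors and channels, so their lists are not independent of each other.

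Members differed in how far they moved. With each level set relative to the summed members of the same tumor, 9 members were higher and 7 lower in GC CD8 T cells, where 1.22% of all genes were higher and 12.1% lower on this scale. Those higher included Rps18, Rpl10, Rpl32, Rps15a and Rpl12. Those lower were Rpl37a (-0.46, SE 0.0777, limma adjusted p = 0.00544), Rps15 (-0.41), Rplp2 (-0.38), Rpl13a (-0.37), Rpl41 (-0.34), Rpl23a (-0.31) and Rpsa (-0.31). In TAMs 17 were higher and 8 lower relative to the family, with background shares of 2.32% and 43.9%. Rps18 led at 0.96, followed by Rpl10 (0.58), Rpl29 (0.55) and Rps27 (0.51). The 8 lower members were Rps27l (-0.50), Rpl37a (-0.49), Rpl7 (-0.48), Rpl23a (-0.43), Rps26 (-0.37), Rplp1 (-0.32), Rpl41 (-0.28) and Rps15 (-0.28). Several of these are the most abundant of the family. The 23 members that rose in CD8 T cells had a median pooled control level of 5.13 and the other 59 one of 8.7, and in TAMs these medians were 5.98 and 11.1. Other features lay closer together: the base content in G and C of the transcript had a median of 51.6% among the 23 and 50.6% among the 59, the share of 90-base stretches found in another gene 38.1% and 35%, and a pyrimidine run of at least 6 stood at the listed start of 12 of 17 and 26 of 45. These are descriptions of lists chosen by their change.

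Tregs gave the largest changes on the fewest cells, with 5 cells in each of 2 GC tumors, and were added after the data were examined. Limma called 69 of 82 members higher (5.29% of all genes) and edgeR 28 (1.23% of all genes), all 28 among the 69, with 0 members lower by either; 11.3% of all genes fell by limma. The limma count was 45 without control tumor 2 (2.17% of all genes rose) and 46 to 51 without any 1 of the other control tumors (2.24% to 3.47%). The median log2 change was 1.09 over the members and -0.232 over all genes tested. Rps18 read 1.88, 1.78, 2.15, 1.63 and 1.96 in the control tumors and 12.1 and 7.69 in the GC tumors, a change of 2.31 (SE 0.219, limma adjusted p = 0.00118). Rpl12 (1.92), Rps2 (1.92), Rpl13 (1.75), Rpl36a (1.74), Rpl32 (1.68) and Rpl26 (1.63) were also among the largest changes. Without the poor cells, which were seen in control Tregs and in 0 of the 14 GC Tregs, the count was 38 (3.98% of all genes rose). The Treg groups also differed in markers: 4 T cell markers summed to 15.2 to 17.4 in GC tumors against 11.2 to 13.1, the 3 Treg markers to 84.4 to 107 against 113 to 119, and the 6 eosinophil markers, which include Il1rl1, also known from tissue Tregs, to 0 to 2.82 against 5.29 to 7.24. The part of these shifts was not tested.

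In neutrophils, where the family was scarcest, 3 of 81 members rose (2.09% of all genes rose and 2.74% fell) and edgeR called 10 (2.63% of all genes). Rpl28 read 1.04, 0.804, 0.651, 1.73 and 0.858 in the control tumors and 2.83 and 2.90 in the GC tumors, a change of 1.48 (SE 0.415, limma adjusted p = 0.0422). Rpl30, which also binds selenoprotein mRNAs, changed by 1.18 and Rpl37 by 1.02. The median over the members was 0.657 against 0.0337 over all genes, and 42 members did not overlap between the groups, as in 11.3% of all genes. None of the 3 calls held in more than 1 of the 7 fits that left out a tumor. Rps18 read 1.14, 0.276, 0.266, 0.616 and 0.413 against 0.937 and 0.687, with overlap.

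Monocytes and eosinophils, both added after the data were examined, had few members called. The median log2 change in monocytes was 0.153 over the members and -0.186 over all genes tested. For eosinophils these medians were 0.0465 and -0.652. In monocytes limma called 2 of 82 higher (3.95% of all genes rose and 11.4% fell), and edgeR 4 (3.69%). The 2 were Rps18, from 3.04, 2.89, 2.77, 3.24 and 3.46 to 5.81 and 6.10 (log2 change of 0.93, SE 0.162, limma adjusted p = 0.00619), and Rpl10, from 4.92, 4.69, 4.76, 4.63 and 5.55 to 9.003 and 9.406 (0.90, SE 0.152, limma adjusted p = 0.00563). The count was 13 without control tumor 5 (4.53% of all genes rose). In eosinophils 2 of 81 members rose, Rplp1 (1.09) and Rps23 (1.19), and Rpl22l1 fell, from 0.483 to 1.39 in control tumors to 0.113, 0 and 0 in GC tumors, so that its fitted change depends on the pseudocount. Of all genes 0.636% rose and 9.39% fell there, edgeR called 5 members higher (2.49% of all genes), and edgeR called none of these 3 genes, with log2 changes of 0.04 for Rplp1 and 0.49 for Rps23. With 1 tumor left out, Rplp1 kept its call in 7 of 8 fits, Rps23 in 2 and Rpl22l1 in 3. The count of members called higher was 0 without control tumor 3 (0.0565% of all genes rose) and 7 without GC tumor 2 (2.08%). Rpl22l1 held UMIs in only 33 of 478 control eosinophils.

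The differences between classes were tested directly, as the GC change in 1 class minus that in another with tumors as a block. TAMs minus CD8 T cells had 0 of 81 members past the threshold by limma (0.76% of all 3421 genes), with 1 member at an unadjusted p under 0.05, and neutrophils minus TAMs also 0 (5.12% of all genes), with 10. Neutrophils minus CD8 T cells had 6 members with a larger rise in neutrophils (7.45% of all genes differed), Rpl28, Rplp0, Rpl5, Rpl30, Rps28 and Rps12. Rpl5 is one of the proteins that carry 5S ribosomal RNA into the particle and restrain Mdm2. The share of members that differed in this contrast, 6 of 81, was near that of all genes.

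Genes that work with the ribosome were taken from lists made by function. In CD8 T cells none of 3 other ribosome components, 8 elongation factors, 30 initiation factors or 15 assembly and nucleolar genes tested passed the limma threshold, nor any of 11 genes that control terminal oligopyrimidine mRNAs, and 1 of 40 mitochondrial ribosomal protein genes fell (Mrps28). Eef1a1, the elongation factor whose pattern over clusters was most like the family's, read 28.9 to 33.3 in control and 33.9 to 41.0 in GC CD8 T cells without overlap, a change of 0.25 (SE 0.0898, limma adjusted p = 0.14). Bbc3, the cell death gene Puma, was the single listed p53 and stress target of 9 that rose there. In TAMs Fau, the ubiquitin-like fusion that carries ribosomal protein S30, rose by 0.47, as did the translationally controlled Tpt1 (0.42) and the initiation factors Eif1 (0.58) and Eif3i (0.68), while Eif3a (-0.42) and Larp1 (-0.46) fell. Of 39 mitochondrial ribosomal protein genes tested in TAMs, Mrpl4 and Mrps24 rose, and their median change was 0.00446. In Tregs, where 5.29% of all genes rose by limma and 1.23% by edgeR, 2 of 3 other ribosome components rose, Rack1 (1.09) and Fau (0.54). So did 4 of 7 elongation factors, Eef1a1, Eef2, Eef1d and Eef1g, 5 of 32 mitochondrial ribosomal protein genes, 4 of 29 initiation factors and 4 of 13 assembly genes, among them the nucleolin gene Ncl (1.20), while the translation repressor gene Eif4ebp2 and the mitochondrial Mrps23 fell. In monocytes Fau (0.48) and Tpt1 (0.47) rose, and in neutrophils Eif3f was the single riser of all lists.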

How the data were processed

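The authors aligned reads with Cell Ranger 7.1.0 to mm10 with introns counted, assigned cells to hashtags and removed outlying cells in R 4.3.1 with Seurat 5.0.3, then clustered and named the cells. The deposited matrix holds values per the authors' library-size normalization on a natural log scale, ln(1 + 10000 × UMI / total). The deposited cell table gives UMI counts and the percent of mitochondrial transcripts per cell. From the natural log values whole UMI counts were recovered. Doublets were removed by the authors through hashtags alone. Tumors, told apart by hashtag, were the replicates; tumors with at least 10 cells of a class were tested, and at least 5 for Tregs, monocytes and eosinophils. Levels per cell were averaged per tumor and tested with limma 3.58.1 (trend, robust), with edgeR 4.0.16 and DESeq2 1.42.0 on UMI sums as alternatives, in R 4.3.3 and Python 3.11.15. On simulated data limma made more false calls than edgeR where GC tumors were few and shallow, so edgeR counts stand beside limma counts. The simulation covered CD8 T cells, TAMs and neutrophils and gave limma summed UMIs, where the reported fits used means over cells. It therefore does not measure the false calls of the reported fits, and Tregs were not simulated. The members and all lists were chosen with earlier results of these data known. The text names, by rule, the members called in a class or the 8 that rose and fell most, paralogs, the 10 highest members, those under 0.2 and the 10 with the largest spread over clusters. Sequences are from RefSeq and GENCODE annotation of GRCm38. Intervals cover counting error only. A few genes that the rule names are not reported here.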

Additional observations from a re-analysis of the deposited data

Results flagged for a closer look

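Over 39 groups of 4 to 10 tumors, 3 held a tumor set far from the rest, where chance alone gives about 1 in 20 groups. Control tumor 5 had the highest family share in monocytes, 8.68% against 6.381 to 6.713% in the other 4. Of its 19 monocytes 4 were Monocytes 1 and 14 Monocytes 2, where Monocytes 1 made up 69.3% of all control monocytes and held the lower share. The same tumor had the lowest Rpl37 level in neutrophils, 3.199 per 10000 against 4.467 to 4.922, and the highest Rpl28 level in TAMs, 6.724 against 5.624 to 5.901.

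The GC change differed between neutrophils and CD8 T cells in 6 members by the limma interaction test, each with a larger rise in neutrophils. These were 6 of 81, near the 7.45% of all genes that differed in this contrast. The differences on the log2 scale were 1.03 for Rpl28 (SE 0.304, limma adjusted p = 0.0386), 0.99 for Rplp0, 0.916 for Rpl5, 0.893 for Rpl30 (SE 0.219, limma adjusted p = 0.0148), 0.89 for Rps28 and 0.731 for Rps12. They rest on 2 GC tumors with 19 and 14 neutrophils.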

How the results depend on the processing

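In CD8 T cells the count of 23 members became 48 by edgeR (3.9% of all genes rose), 51 by DESeq2 (4.09%) and 47 with cells of at least 2% family UMIs (3.53%). It became 41 from UMI sums over total UMIs (2.87%), 5 from the mean of the deposited log values (3.12%) and 12 with no filter on low values (0.487%). At 20 cells per tumor it was 55 (4.3%) and in cluster CD8 1 alone 41 (2.62%). In neutrophils the 3 became 10 by edgeR (2.63% of all genes rose), 0 by median-of-ratios scaling (1.84%) and 0 relative to the family (0.929%). In the reported fit 35 members, and 809 of all 4411 genes, had an unadjusted limma p under 0.05. The count was 31 from the deposited log values (6.44%), 9 from UMI sums (2.29%), 9 at a filter of 1 (4.68%) and 42 by groups that do not overlap (11.3%). In TAMs the 52, all higher, became 25 relative to the family, of which 17 were higher and 8 lower (2.32% and 43.9% of all genes). In Tregs the 69 became 28 by edgeR (1.23% of all genes rose) and 38 without poor cells (3.98%). By edgeR the 2 in monocytes became 4 (3.69%) and the 3 in eosinophils became 6, of which 5 were higher (2.49%). With 1 tumor left out the counts ran from 11 to 55 in CD8 T cells, 0 to 1 in neutrophils, 44 to 63 in TAMs, 45 to 81 in Tregs, 2 to 13 in monocytes and 0 to 10 in eosinophils. Neutrophils minus CD8 T cells had 1 to 12 then and 2 with no filter, and neutrophils minus TAMs 0 to 5, and 1 at 5 cells per tumor. These ranges with 1 tumor left out count both directions. The highest counts in TAMs (without GC tumor 3) and Tregs (without GC tumor 5) came from fits with 1 GC tumor left and carry no weight. Median log2 changes there were 0.52 over the members and -0.1 over all genes in TAMs, and 1.4 and -0.0908 in Tregs. The 10 in eosinophils, without GC tumor 2, were 7 higher and 3 lower (2.08% of all 5241 genes rose and 984 fell). Between classes no share of all genes is given. The share difference moved in neutrophils from 0.971 to 1.12 points with summed UMIs and 0.831 in cells of middle depth. In Tregs it moved from 4.82 to 3.6 without poor cells, and in eosinophils from 0.788 to 2.1 with summed UMIs. The cause was not tested. Over 32 named member and class pairs, 476 of 529 alternatives stayed on the same side of the threshold, 53 lost it and 0 turned direction. The pairs were named by their change in these same tumors, so this agreement is in part built in and is no further support. At 20 cells per tumor no fit was possible in TAMs, neutrophils or between classes, nor in TAMs of middle depth. No paired analysis was possible because hashtag numbers of control and GC tumors name tumors under different treatments, which share nothing but the number.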

Other observations

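Rps18, Rpl10, Rpl32 and Rps15a hold very different shares of sequence that also occurs in another gene. Of the 90-base stretches of the main transcript, 64.97% did so for Rps18, 84.6% for Rpl10, 6.854% for Rpl32 and 3.418% for Rps15a, and 23.03% for Rpl37a. The Rps15a transcript used had 5179 bases for 393 coding bases, against 906 and 408 for Rpl32, so its shared stretches are set against a far longer sequence. Reads come from the 3′ end, so a share over the whole transcript does not measure how many reads fit another gene. By cluster, Rps18 in GC tumors stood above the control tumors in CD8 1 (9.70 to 12.5 per 10000 in 4 tumors, against 5.23 to 5.79), in CD8 2 (8.87 and 10.5, against 3.87 to 4.75) and in Monocytes 1 (5.47 and 6.47, against 2.37 to 2.50). In the 1 GC tumor with enough CD4 cells it read 6.51, inside the control range of 4.97 to 6.52.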
